A study of Mus musculus with 32 samples.

Results

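H3K27me3 was compared between mouse progenitors that carry an Asxl1 guide together with CSF3R T618I (called double here, n = 2 libraries) and progenitors that carry the Asxl1 guide alone (called guide, n = 3 libraries). These 5 libraries were chosen by their sample titles, out of 10 for this mark and 32 samples in the series. The cells were HoxB8 progenitors, bone-marrow cells immortalised by an estrogen-dependent HoxB8, grown in 0.6 µM estrogen with 2% SCF-conditioned medium and taken 48 h after estrogen was removed. The double libraries came from cells with the guide sgRNA Asxl1 B2 and the vector pMICH-CSF3R-T618I, and the guide libraries from cells with sgRNA Asxl1 B2 and pMICH-Empty. Of the genotypes used for reference, control cells had a non-targeting sgRNA and pMICH-Empty (n = 2), and CSF3R cells had the non-targeting sgRNA and pMICH-CSF3R-T618I (n = 3). The comparison therefore asks what CSF3R T618I changes in cells that carry the Asxl1 guide. The receptor was expressed from a vector and a single guide, B2, was used, and the labels do not say whether replicates were separate cultures or clones, so p-values measure the spread between these libraries, which may be technical.

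H3K27me3, trimethylated lysine 27 of histone H3, is laid down by Polycomb repressive complex 2 and marks silenced genes, above all developmental regulators such as the Hox genes. H2AK119ub, the product of Polycomb repressive complex 1, often lies on the same genes and is removed by BAP1, an enzyme that works together with ASXL1. CSF3R is the G-CSF receptor, which signals through JAK-STAT and drives the production of neutrophils, and T618I is an activating change known from chronic neutrophilic leukaemia. Each library is a CUT&Tag peak list: an antibody guides a transposase to the mark, and the list gives the positions of the enriched stretches. No heights, scores or read counts came with the peaks, so the depth is unknown and each value below is a length. The main measure is the percent of a 10 kb window, 5 kb to each side of a gene start, that lay inside peaks. Differences are in percentage points of that window. Where the reference gave no stranded start, the better covered end of the gene was taken, which can be its 3′ end. Among the genes described with values below, such gene-end windows are those of Zfp516, Slc26a11, Card14, Ccnd1, Ccnd2, Socs2, Itgb3, Dusp4, Hapln4, Abcg4, Cdh2, Map4k4, Ush1g, Mn1, Tbx2, Hoxb6, Hoxb7, Sall3, Kdm6b, Cebpe and Myc.

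The 4 promoters below show the stretches on which the difference was most clear-cut. They belong to the named genes with the widest gap between double and guide that have a start site and a promoter in the RefSeq table (GRCm38.p6, the mm10 coordinates). In each of them 0% of the 300 bases lay in H3K27me3 peaks in all 3 guide libraries, and 100% lay in peaks in both double libraries. Each runs 5′ to 3′ from 250 bases before the start to 50 bases after it, and the capitals mark the dinucleotide CG, which reads the same on both strands.
Sgsh: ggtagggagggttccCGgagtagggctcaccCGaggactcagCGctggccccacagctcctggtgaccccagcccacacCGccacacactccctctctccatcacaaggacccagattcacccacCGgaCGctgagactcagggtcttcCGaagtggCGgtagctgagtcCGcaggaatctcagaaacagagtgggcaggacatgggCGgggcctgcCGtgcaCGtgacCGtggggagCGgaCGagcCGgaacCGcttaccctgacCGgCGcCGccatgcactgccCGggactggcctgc
Pde10a: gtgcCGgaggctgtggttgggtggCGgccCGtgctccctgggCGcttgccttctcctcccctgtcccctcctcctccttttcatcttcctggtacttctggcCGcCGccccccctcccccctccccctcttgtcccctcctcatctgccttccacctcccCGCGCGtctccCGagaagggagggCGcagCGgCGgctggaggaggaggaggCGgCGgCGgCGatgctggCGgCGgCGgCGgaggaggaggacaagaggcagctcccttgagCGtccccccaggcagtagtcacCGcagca
Smad3: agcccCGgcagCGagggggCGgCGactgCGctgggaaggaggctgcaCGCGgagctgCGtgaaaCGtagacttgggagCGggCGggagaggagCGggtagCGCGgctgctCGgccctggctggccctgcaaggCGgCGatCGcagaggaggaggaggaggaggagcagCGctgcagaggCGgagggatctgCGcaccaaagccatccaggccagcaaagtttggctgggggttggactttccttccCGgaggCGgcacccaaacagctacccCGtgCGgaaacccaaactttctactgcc
Cds1: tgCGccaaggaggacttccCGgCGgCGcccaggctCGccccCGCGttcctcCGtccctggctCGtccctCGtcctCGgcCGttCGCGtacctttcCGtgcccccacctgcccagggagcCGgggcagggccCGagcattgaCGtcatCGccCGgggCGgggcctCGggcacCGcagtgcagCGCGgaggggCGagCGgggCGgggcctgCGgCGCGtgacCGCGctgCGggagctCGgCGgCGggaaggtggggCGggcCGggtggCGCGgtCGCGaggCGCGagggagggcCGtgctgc
Sgsh, a lysosomal enzyme that degrades heparan sulphate, has its promoter at chr11:119355461-119355760 on the minus strand, with 21 CG. Pde10a, a phosphodiesterase that breaks down cyclic AMP and cyclic GMP, has its promoter at chr17:8801495-8801794 on the plus strand, with 23 CG. Smad3, which carries signals from TGF-β receptors to the nucleus, has its promoter at chr9:63757945-63758244 on the minus strand, with 25 CG. Cds1, an enzyme of phospholipid synthesis, has its promoter at chr5:101764880-101765179 on the plus strand, with 46 CG, a number reached by 2.01% of the 17492 promoters of the same length. As many CG as in Sgsh, Pde10a and Smad3 were present in 33.5, 28.8 and 24.3% of all promoters. In the CSF3R cells the Cds1 promoter was covered fully in 3 of 3 libraries, and those of Sgsh and Pde10a in 2 of 3. The Smad3 promoter was covered to 0, 81.3 and 100% there. Control libraries had no peak on these promoters except on that of Cds1, which was fully covered in 1 of 2.

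The peak lists of the 5 libraries were of very different lengths. The guide libraries covered 4.73, 53 and 12.4 Mb in 6071, 45373 and 12774 peaks, and the double libraries covered 19.2 and 14.2 Mb in 16948 and 18520 peaks. Guide replicate 2 thus stood apart: its list was 11.2 times as long as that of guide replicate 1, 4.27 times that of guide replicate 3, and longer than any of the other 9 H3K27me3 lists. It contained 99.5% of the length of guide replicate 1, 96.8% of guide replicate 3, 85.5% of double replicate 1 and 80.0% of double replicate 2. The covered length of double over guide was 1.13-fold (log2 ratio 0.18, exact 2-sided permutation p = 0.8, smallest possible p = 0.1) with all libraries and 2.15-fold (log2 ratio 1.11, exact p = 0.333, smallest possible 0.167) without guide replicate 2. Without guide replicate 1 the log2 ratio was -0.64, so the direction rests on which guide libraries enter. Leaving out double replicate 1 gave -0.04. Mean peak width was 780, 1168 and 972 bp in guide and 1134 and 766 bp in double (log2 ratio -0.04, exact permutation p = 0.7). In double replicate 2, 34% of peaks had the shortest width of 200 bp, against 12.8% in double replicate 1. Markers fixed for other blood lineages gave no lineage name here, since a repressive mark does not tell which genes are active. The neutrophil genes Mpo, Elane, Ltf, Camp and S100a8 had no H3K27me3 in any of the 5 libraries, and the lymphoid regulators Pax5 and Ebf1 were covered in 5 and 4 of them.

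**Figure D1:**
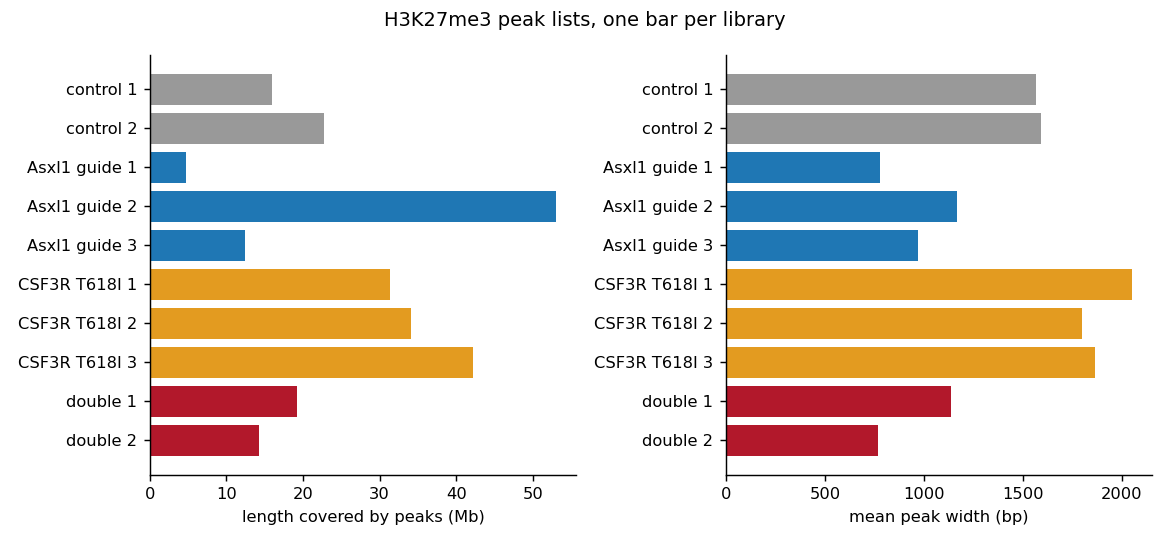
Length covered by H3K27me3 peaks in Mb (left) and mean peak width in bp (right), with 1 bar for each of the 10 libraries, coloured by genotype. Guide replicate 2 reaches 53 Mb, above both double libraries (19.2 and 14.2 Mb), while the other 2 guide libraries (4.73 and 12.4 Mb) lie below them.

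At most windows the guide and double libraries overlapped. Of 21887 protein-coding genes, 3513 had at least 20% of the window in peaks in at least 2 of the 10 libraries and were tested. Guide replicate 2 lay above both double libraries at 2981 of these windows (84.9%), whereas guide replicate 1 lay below both at 2497 and guide replicate 3 below both at 1345. Both double libraries lay above all 3 guide libraries by any margin at 136 windows and below them at 134. With all libraries, limma called 0 of the 3513 windows higher in double (0%) and 0 lower (0%) at an adjusted p under 0.05, while 98 had an unadjusted p under 0.05, 72 of them higher. The median difference was -1.89 points. Without guide replicate 2, limma called 68 windows higher (1.94% of those tested) and 1 lower (0.0285%), the median difference was 6.75 points, and 2703 of the 3513 differences were positive. Of the 68, 6 passed the filter only because of the double libraries, so their calls are no test. With covered length as a covariate and guide replicate 2 left out, limma called 0 windows higher and 0 lower, while 321 had an unadjusted p under 0.05, so every gene-window call given below for the fit without guide replicate 2 is lost when list length is in the model. Differences from both fits are given below for many genes, and for the others only the fit named there. No window passed with all libraries. Of these 2 fits, each gene named below as called in H3K27me3 therefore passed only the one without guide replicate 2.

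**Figure D2:**
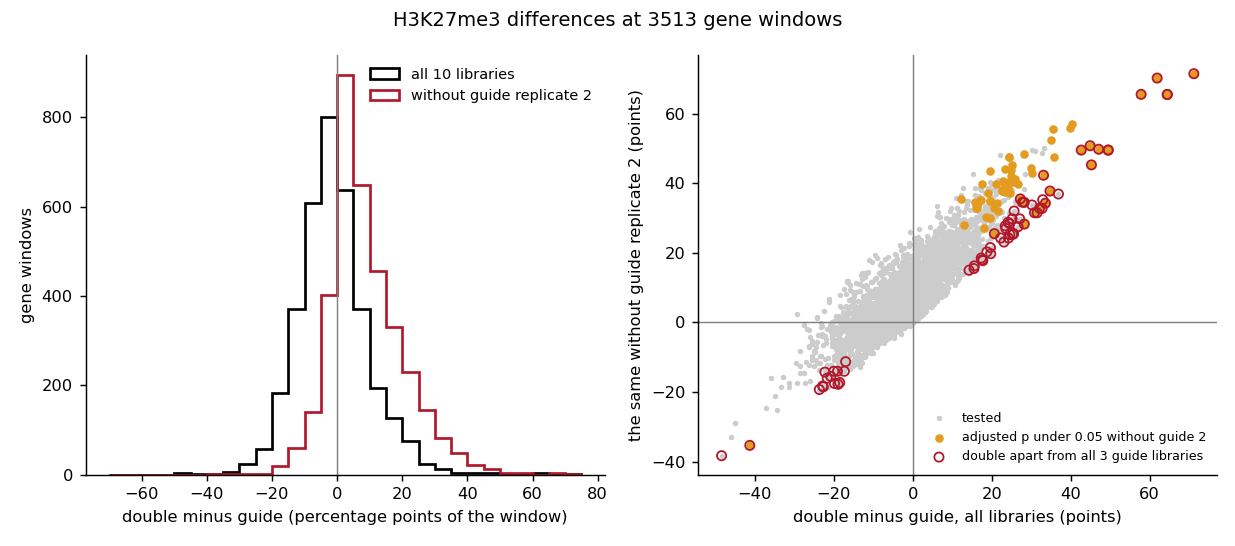
Left, the number of gene windows by the H3K27me3 difference, double minus guide, in percentage points, for all 10 libraries (black) and without guide replicate 2 (red). Right, each of the 3513 windows with the difference from all libraries on the x axis and that without guide replicate 2 on the y axis. The median moves from -1.89 to 6.75 points, and the windows with double apart from all 3 guide libraries (open circles) lie at the lower right edge above 0 and at the ends of the cloud.

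A description that does not depend on averaging the guide libraries is the gap: windows in which both double libraries lay above, or below, all 3 guide libraries by at least 10 points. The double libraries lay above at 50 windows (1.42% of the 3513), at 46 separate loci, and below at 15 windows (0.427%). Guide replicate 2, with 2.76 times the covered length of double replicate 1 and 3.73 times that of double replicate 2, lay below both of them at all 50 by construction. Of the 50, 11 passed the filter on low values only because of the double libraries and had to differ. Zfp516, Plxnc1 and Itgb3 are among these 11, so their H3K27me3 values are given below as a description, with no test. The count of 50 became 454 without guide replicate 2, and 82 and 112 when double replicate 1 or 2 was left out, and with a 2 kb window it was 135. The count of 15 became 206 without guide replicate 1, 64 and 35 when double replicate 1 or 2 was left out, and 124 with a 2 kb window.

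Zfp516, a zinc-finger transcription factor, had the widest gap. Its gene-end window (chr18:82904688-82914687) was covered to 0, 2 and 2.5% in guide and to 91 and 54.4% in double, where the longest peaks measured 9100 and 6350 bp, the latter reaching past the window. The control and CSF3R libraries had no peak there, so only the double libraries carried the mark to any extent. The difference was 71.2 points with all libraries and 71.4 points without guide replicate 2.

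Ccnd2 encodes cyclin D2, which drives entry into the cell cycle and is a known target of cytokine signalling. The guide libraries covered 0, 24.9 and 0% of its window (gene-end window, chr6:127147188-127157187) and the double libraries 72.4 and 68%. Both double libraries lay far above every guide library, and within the range of the CSF3R libraries (54.4, 70.0 and 78.4%). Control had 2.87 and 25.9%. The difference was 61.9 points (SE 11.2, limma adjusted p = 0.159), or 70.2 points (SE 9.36, adjusted p = 0.0117) without guide replicate 2.

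Pde10a (start-site window, chr17:8796745-8806744) was covered to 0, 23 and 0% in guide and to 69 and 62% in double. Its pattern over the genotypes was like that of Ccnd2: 25% in both control libraries and 57.5 to 83% in CSF3R. The difference of 57.8 points (adjusted p = 0.159) was 65.5 points without guide replicate 2 (SE 8.03, limma adjusted p = 0.0117).

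At the start of Sgsh, whose window is shared with a gene end of Slc26a11, an anion transporter, the guide libraries covered 0, 3 and 0% of the shared window (chr11:119350510-119360509 for Sgsh) and the double libraries 78.9 and 52%. The centres of their windows lie 1 bp apart, so these are 1 locus counted under 2 names. The neighbouring gene Card14, a scaffold protein of NF-κB signalling, had no peak in any guide library and 39.3 and 34.5% in double. Sgsh gained 65.5 points without guide replicate 2 (SE 11.7, limma adjusted p = 0.0325), and Card14 differed by 36.9 points without passing the threshold (adjusted p = 0.151).

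Smad3 (start-site window, chr9:63752994-63762993) had no peak in any guide or control library, 55 and 35.5% in double, and 22, 26 and 47.5% in CSF3R. Cds1 had no peak in guide and 65.5 and 33.5% in double. Leaving out guide replicate 2 changed neither difference (45.2 and 49.5 points), since it was at 0 like the other guide libraries, but the adjusted p fell from 0.213 to 0.044 for Smad3 and from 0.208 to 0.0401 for Cds1. Nuak1, a kinase of the AMPK family, rose from 0, 8 and 0% to 63.5 and 36% (adjusted p = 0.194 with all libraries and 0.0277 without guide replicate 2, limma).

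**Figure D3:**
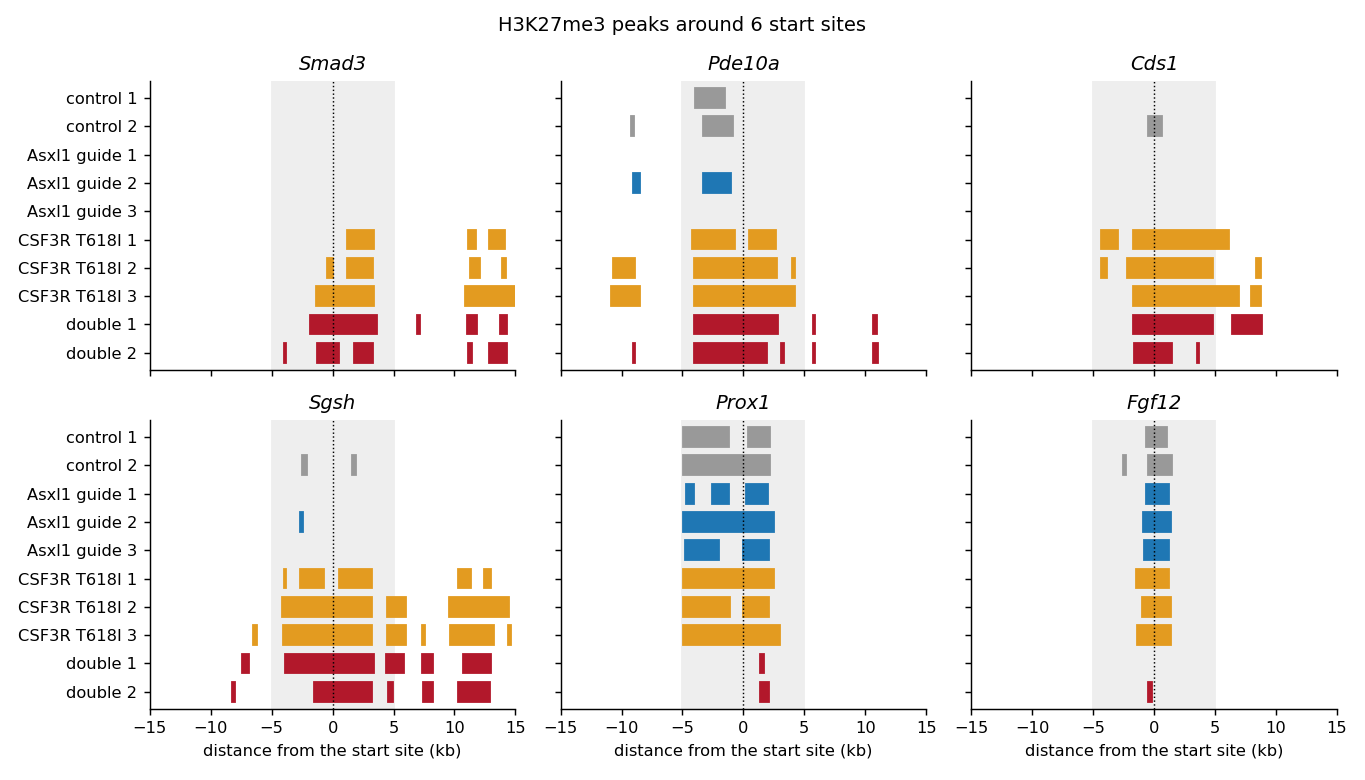
H3K27me3 peaks (coloured bars) in the 10 libraries from 15 kb before to 15 kb after the start sites of 6 genes, in the direction of transcription, with the tested 10 kb window shaded. At Smad3, Pde10a, Cds1 and Sgsh the double libraries have peaks across the start and the guide libraries do not, while at Prox1 and Fgf12 all 8 other libraries have peaks inside the window that the double libraries lack or have only in part.

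In Plxnc1 and Nrp1, from the axon guidance and adhesion list, double lay above all 3 guide libraries by at least 10 points, as in 1.42% of all windows. Plxnc1, the receptor plexin C1, had 0, 27.5 and 0% in guide and 41.5 and 43.1% in double, a difference of 42.3 points without guide replicate 2. Nrp1, neuropilin 1, a co-receptor for semaphorins and VEGF, had 0, 2 and 0% in guide and 35.5 and 27.5% in double. Its difference was 30.8 points with all libraries (limma adjusted p = 0.366) and 31.5 points without guide replicate 2 (SE 6.34, limma adjusted p = 0.0401). Of the 45 tested genes of that list, these 2 (4.44%, against 1.94% of all windows) were called higher without guide replicate 2. None was called lower (0.0285% of all windows). Plxnc1 passed the filter only because of the double libraries, so its call is no test and only that of Nrp1 is. The cadherins Cdh2 and Cdh20 lay below the guide libraries, as did 0.427% of all windows. The list's median difference was -3.33 points with all libraries and 7.25 without guide replicate 2, close to the -1.89 and 6.75 points of all windows.

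Of the JAK-STAT and cytokine signalling list, 9 of 52 members (17.3%) carried enough H3K27me3 to be tested, close to the 16.1% of all protein-coding genes. Socs2, a feedback inhibitor of cytokine receptors, had 4.5, 22 and 2% in guide and 37 and 38.5% in double, and with Ccnd2 it was called higher without guide replicate 2 (34.5 points, SE 6.72, limma adjusted p = 0.0401). With all libraries the Socs2 difference was 28.25 points and did not pass. Ccnd1, cyclin D1, had 12, 63 and 27.5% in guide and 62.5% in both double libraries, so guide replicate 2 reached the double level (adjusted p = 0.0681 without it). Socs2 and Ccnd2 are 22.2% of the 9 tested, against 1.94% of all windows. The list's median difference was 9.62 points with all libraries and 21.5 without guide replicate 2, against -1.89 and 6.75 points over all windows. In 39 of the 52 genes (75%) no library of the 5 had a peak, as in 70.5% of all protein-coding genes.

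Some windows carried the mark in the double libraries alone. In 4 windows of the 21887 genes both double libraries had at least 10% coverage and the other 8 libraries had none: Itgb3, Spry1, Dusp6 and Glcci1. The reverse, double at 0 and at least 10% in each of the other 8 libraries, also held at 4 windows. Both sets were singled out after their values were seen. Of the first 4 windows all except Itgb3 were too thinly covered to be tested, while the 4 of the reverse were tested. Spry1, sprouty 1, an inhibitor of growth factor signalling, had 14.5% in both double libraries, and Dusp6, a phosphatase that switches off ERK, had 17.5 and 16%. Itgb3, integrin β3 of platelets and macrophages, had 45.5 and 20%, a difference of 32.8 points. Dusp4, a related phosphatase, was already covered to 0, 22 and 6% in guide and had 33.5 and 36.5% in double.

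Windows with double below guide were fewer, and Prox1 and Hapln4 had the widest gaps among them. Prox1, a homeobox factor of lymphatic endothelium and other organs, had 39, 74.5 and 49% in guide and 4 and 7.5% in double (start-site window, chr1:190165827-190175826). Control (55.5 and 71%) and CSF3R (74.5, 60.5 and 80.0%) resembled guide, so the double libraries were the only low ones. The guide libraries had peaks of up to 7450 bp there, and the double libraries a single peak each, of 400 and 750 bp. The difference was -48.4 points (SE 11.2, limma adjusted p = 0.337), and -38.2 points (SE 8.21, adjusted p = 0.0508) without guide replicate 2, which misses the threshold.

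Hapln4, a link protein of the extracellular matrix, had 26.8, 53.3 and 43.8% in guide and no peak in either double library (gene-end window, chr8:70078529-70088528). It was the single window called lower without guide replicate 2, with -35.3 points (SE 6.64, limma adjusted p = 0.0387, against 0.213 with all libraries). Slc30a2, a zinc transporter, Gas1, a modulator of Hedgehog signalling, and Abcg4, a sterol transporter, were the other windows at 0 in both double libraries with at least 10% in each of the other 8 libraries. Slc30a2 had 14, 33 and 18% in guide, and the adjusted p without guide replicate 2 was 0.257.

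Among the other windows with double below guide were Fgf12, Nectin3, Map4k4, Gli3 and Marchf4. Fgf12, an intracellular FGF-like protein that modulates sodium channels, was even across the guide libraries (18.5, 23 and 20.5%) and at 0 and 3.5% in double, yet with -17.8 points without guide replicate 2 it did not pass (adjusted p = 0.144, limma). Cdh20 had 15, 21 and 19.5% in guide and no peak in double, with little in CSF3R either (0, 5 and 5%). Ush1g and Mn1, which ranked high by p with all libraries, had smaller gaps of -6 and -7 points. Mn1, a transcriptional coactivator known from myeloid leukaemia, had 26, 68 and 55.5% in guide and 12 and 19% in double. None of these passed the threshold in either fit.

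**Figure D4:**
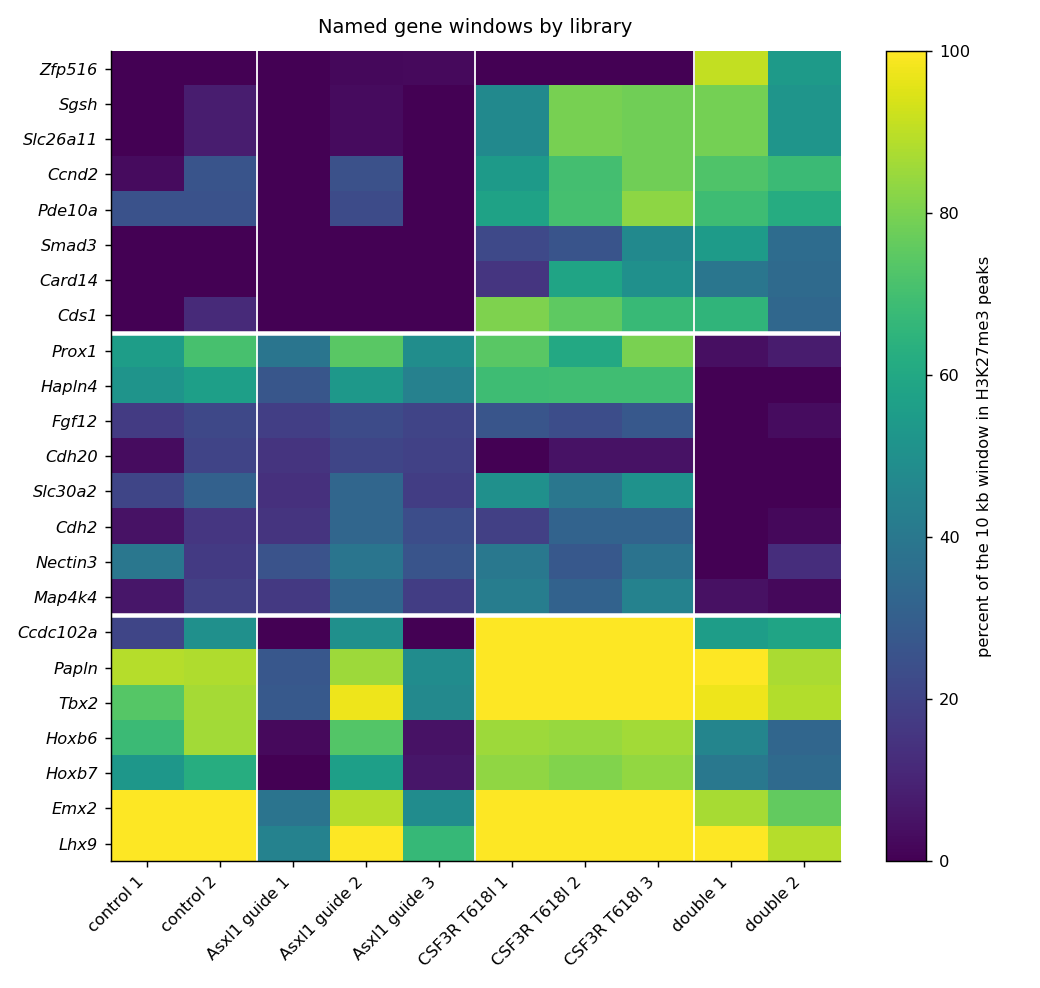
Percent of the 10 kb window in H3K27me3 peaks (colour) in each of the 10 libraries (columns) for 3 blocks of named genes (rows). The upper 8 genes have double above all 3 guide libraries, the middle 8 have double below them, and in the lower 7 guide replicate 2 is close to or above the double libraries while the other 2 guide libraries are below them.

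In most of the windows called higher without guide replicate 2, that library was not below the double libraries. Of the 68 windows, 25 had guide replicate 2 below both double libraries and 43 did not, and in 28 it lay above both. The median window of these 43 was covered to 11, 72.1 and 21.5% in the guide libraries and to 61.9 and 50% in double. The T-box factor Tbx2 and the homeobox factors Emx2 and Lhx9 are examples. Tbx2 had 28, 97.5 and 47% in guide and 97.5 and 88.5% in double (35.5 points, SE 16.3, limma adjusted p = 1 with all libraries, and 55.5 points, SE 7.74, adjusted p = 0.0117 without). Emx2 had 38.5, 89 and 48.6% in guide and 87 and 75.9% in double, and Lhx9 had 44.5, 100 and 67% in guide and 100 and 89% in double. The differences of Emx2 and Lhx9 were 22.7 and 24 points with all libraries, and 37.89 and 38.75 points without guide replicate 2. For these genes the calls rest on guide replicates 1 and 3, whose lists are the shortest of the 10.

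The Hox clusters, classical Polycomb targets, followed the same split. Across the 9 tested genes of the Hoxa cluster the mean coverage was 6.35, 73.9 and 29.2% in guide and 42 and 36.4% in double, against 76.1 to 86.2% in CSF3R and 76.7 and 84.5% in control. The double libraries lay between the guide libraries here. The same order held for the means of Hoxb (1.72, 50.5 and 14.4% in guide, 28.5 and 25.7% in double), Hoxc (4.89, 73.2 and 24.7%, against 42.4 and 31.7%) and Hoxd (7.6, 60.1 and 21.2%, against 29 and 28.2%). With all libraries none of the 37 tested Hox windows was called and none had double apart from all guide libraries. Without guide replicate 2, Hoxb6 and Hoxb7 rose (5.41% of the 37, against 1.94% of all windows), with Hoxb7 at 0 and 6% in guide against 40.0 and 34.5% in double (34.2 points, SE 6.05, limma adjusted p = 0.0322), and the other 35 did not pass. With all libraries the differences were 12.2 points at Hoxb6 and 16.4 points at Hoxb7. Hoxb8, whose cDNA immortalises these cells, had 2.5, 43.5 and 14% in guide and 27 and 36.5% in double at the endogenous gene (adjusted p = 0.102 without guide replicate 2). Hoxa9, a self-renewal factor of myeloid progenitors, had 12.5, 69.5 and 34.5% in guide and 36.7 and 33.2% in double, and its difference was -3.89 points with all libraries and 11.4 without guide replicate 2.

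Developmental genes outside the Hox clusters were tested in large numbers, with few calls. Of 101 homeobox regulators 3 rose without guide replicate 2 (Lhx9, Emx2 and Tlx1) and none fell, and 88 of the 101 differences were positive. The median was 15.2 points, above the 6.75 points of all windows, but 0.375 points with all libraries. By the gap of at least 10 points, Prox1 of this list lay below all 3 guide libraries and no member lay above them. Of 77 other developmental regulators Tbx2 rose without guide replicate 2. By the same gap Sall3 lay above all guide libraries and Gli3 below them, as did 1.42 and 0.427% of all windows. The medians of this list were -5.75 and 8.31 points with and without guide replicate 2. Of 50 genes for Wnt, BMP, FGF and Hedgehog signals Fgf9 rose, and of 51 ion channel and neurotransmission genes Kcnk13, a potassium channel, rose (35.5 points, SE 6.32, limma adjusted p = 0.0325), both without guide replicate 2. With all libraries the Kcnk13 difference was 27.2 points and did not pass. These counts lie near the background of 1.94% called higher.

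Lists of blood cell genes differed in how many members carried the mark in these 5 libraries. No library of the 5 had a peak at 15421 of the 21887 protein-coding genes (70.5%). The share was 65.7% of 35 neutrophil granule genes, 60.6% of 33 monocyte, macrophage and dendritic genes, 66.7% of 27 mast cell, basophil and eosinophil genes and 76.7% of 43 Polycomb and Asxl genes. It was lower for the lists of stem and progenitor genes (32.4% of 34), erythroid and megakaryocyte genes (48.3% of 29), lymphoid genes (52.8% of 36) and myeloid transcription factors (54.5% of 33). Among the tested members, Egr2, a myeloid transcription factor, rose without guide replicate 2 (20.5, 63.5 and 30.0% in guide, 61.9 and 57% in double, limma adjusted p = 0.0309), and so did Ebf1, the B-lineage factor (0, 37.5 and 5.01% in guide, 54.5 and 45.5% in double, adjusted p = 0.0117). With all libraries the differences were 21.4 points at Egr2 and 35.8 points at Ebf1, and neither passed. Each was the single call of its list without guide replicate 2. That is 7.14% of the 14 myeloid transcription factors tested and 8.33% of the 12 lymphoid genes, against 1.94% of all windows. None of the 3 neutrophil granule genes, 6 monocyte genes, 8 erythroid and megakaryocyte genes, 3 mast cell genes and 6 Polycomb genes tested passed in either direction. Hmga2, a chromatin protein of fetal stem cells, had 0, 20.5 and 13.5% in guide and 36.5 and 34.5% in double (adjusted p = 0.085 without guide replicate 2). Of the stem and progenitor list, 12 were tested and none was called. Over all windows 1.94% were called higher and 0.0285% lower without guide replicate 2, so lists this short without a call do not stand apart. Asxl1, Csf3r, Cebpe and Myc had no H3K27me3 peak in any of the 10 libraries, and no ribosomal protein gene passed the filter.

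The same addition of CSF3R T618I to cells without the guide gave a comparison that shares no library with the one above. The CSF3R libraries lay above both control libraries by at least 10 points at 1171 windows (33.3% of the 3513) and below at 3 (0.0854%). Of the 50 windows with double above guide, 37 (74%) also had CSF3R above control, among them Sgsh, Ccnd2, Pde10a, Smad3 and Cds1, and none had it below. Seen from the other side, of the 1171 windows with CSF3R above control, 37 (3.16%) had double above guide. Over these 1171 windows the median of double minus guide was 0 points with all libraries and 8.25 without guide replicate 2, against -1.89 and 6.75 points over all 3513 windows.

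A tested window at 0 in all 5 guide-carrying libraries must have passed the filter through control and CSF3R libraries. The 2 shares that follow are therefore a description and no test. At 40 of those 1171 windows (3.42%) all 5 guide-carrying libraries were at 0, as they were at 57 of all 3513 (1.62%). They include Rxra, the retinoid X receptor, with 52 to 80.0% in CSF3R and 11 and 20.5% in control, Dll3, a Notch ligand, with 44 to 56.7% in CSF3R, and Kdm6b, an H3K27 demethylase, with 16.5 to 23.5%. Irf8, which directs monocyte and dendritic fate, had 36.5 to 49.1% in CSF3R, no peak in double or control, and 2.5% in 1 guide library. Gata2, a stem and mast cell factor, had 62.4 to 75% in CSF3R and 0 and 12.5% in double. The interaction is the CSF3R effect with the guide minus that without it. At windows chosen for being at 0 in the guide-carrying libraries it only repeats the CSF3R difference, so it is not given for them. No interaction passed among the 3513 windows (0%), with 432 at an unadjusted p under 0.05, of which 430 were negative, and none passed without guide replicate 2 (557 at an unadjusted p under 0.05, smallest adjusted p = 0.0999). The median interaction was -17.7 points over all windows and -8.58 without guide replicate 2, so a negative value is the rule across windows.

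The second Polycomb mark was measured in separate libraries of the same genotypes. H2AK119ub was higher in double than in guide at 329 of 2875 tested windows (11.4%) and lower at 8 (0.278%) by limma. Its peak lists were also longer in double, at 39.1 and 22.6 Mb against 11.8, 13.4 and 16.7 Mb (2.15-fold, exact permutation p = 0.1, the smallest possible), and with covered length as a covariate 1 window passed. The 337 calls in both directions became 57 and 667 without double replicate 1 or 2, and 129, 173 and 216 without guide replicate 1, 2 or 3. Of the 50 windows with H3K27me3 above guide, 47 were tested for H2AK119ub and 25 of these (53.2%) were called higher, none lower, against 8.08% of the 2004 windows tested for both marks. Without any model, both double libraries lay above all guide libraries by at least 10 points in H2AK119ub at 26 of the 47 (55.3%). The share was 13.1% of the 2004 windows tested for both marks and 17.6% of all 2875 tested for H2AK119ub. With covered length as a covariate 1 of the 47 passed, with 38 of 47 positive. Their median was 16.8 points, against -4.83 points over all 2875 windows tested for H2AK119ub. The part of list length in these calls was not tested further.

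Of the 329 windows called higher in H2AK119ub, 81 passed the filter for that mark only through the double libraries, among them 4 of the 25, so no test is given for these. Of the 4, Itgb3 had no H2AK119ub peak in any guide library and 85 and 74.5% in double, and Zfp516 had 5.5, 0 and 3.5% in guide and 74.9 and 63.9% in double. Smad3 rose from 3, 4 and 18.5% to 73.5 and 62.5% (59.5 points, SE 6.41, limma adjusted p = 0.00182). Ccnd2 already had 43, 42.5 and 51.5% H2AK119ub in guide and rose to 100 and 72% (adjusted p = 0.0107). Spry1 and Dusp6 also passed the H2AK119ub filter only through the double libraries, with 4, 6.5 and 9% in guide and 25.5 and 23% in double at Spry1, and 14.5 to 16% in guide and 55 and 26% in double at Dusp6. Nuak1 (8.67 points, limma adjusted p = 0.657), Nrp1 (17.2 points, 0.187) and Socs2 (3 points, 0.712) were called higher in H3K27me3 without guide replicate 2 and had no H2AK119ub call. Of the 68 windows called higher without guide replicate 2, the 25 with that library below both double libraries had 13 H2AK119ub calls among 24 tested (54.2%), and the other 43 had 7 among 42 (16.7%). Of the 25, 6 passed the H3K27me3 filter only through the double libraries, and none of the 43 did. Zfp516, which passed both filters only in this way, is among the 13, so these shares are a description. Of the 15 windows with double below guide, 4 were tested for H2AK119ub and none was called.

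**Figure D5:**
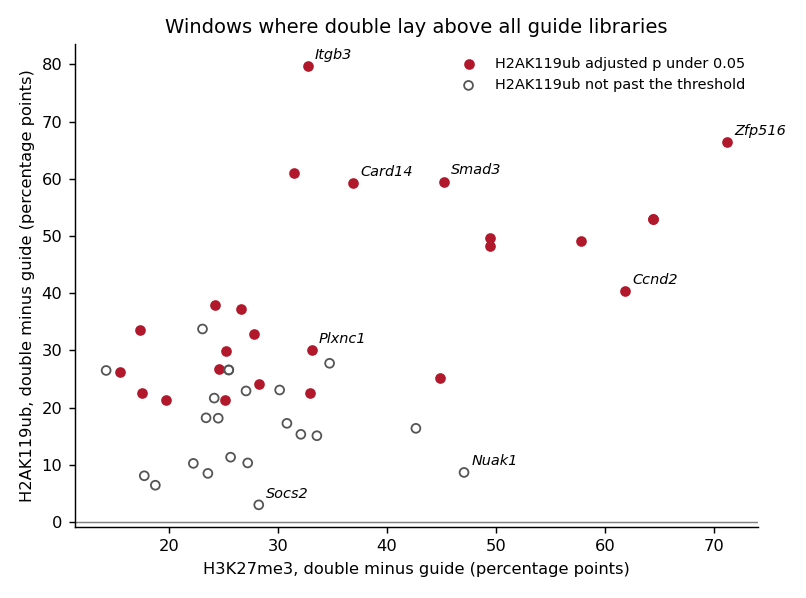
Difference between double and guide in percentage points of the window for H3K27me3 (x axis, all libraries) and H2AK119ub (y axis), for the 47 windows with double above all 3 guide libraries in H3K27me3 that were tested for both. Filled points (25) passed the limma threshold for H2AK119ub, with Itgb3 (79.7 points) and Zfp516 (66.4 points) highest and Socs2 (3 points) lowest.

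H3K4me1, a mark of enhancers and of the flanks of promoters, was higher in double at 190 of 1923 tested windows (9.88%) and lower at 161 (8.37%). Without double replicate 1 these 351 calls became 170. Few windows carried both marks: 61 were tested for both, and of the 50 windows with H3K27me3 above guide 2 were tested for H3K4me1. Itgb3 fell by 14.1 points in H3K4me1 (limma adjusted p = 0.0438), and Plxnc1 differed by 7.5 points (adjusted p = 0.349). Map4k4, a kinase that lay below guide in H3K27me3, rose by 23.9 points (adjusted p = 0.0131).

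Peaks away from genes were followed in 15857 regions, made by merging the H3K27me3 peaks of the 10 libraries. With all libraries limma called 0 of them (0%), with 410 at an unadjusted p under 0.05, and without guide replicate 2 it called 73 higher (0.46%) and 1 lower (0.00631%). The double libraries lay above all guide libraries by at least 10 points at 418 regions (2.64%) and below at 168 (1.06%). Distances were taken to the 1 start or gene end used for each protein-coding gene. Of the 418, 276 (66%) lay more than 5 kb from every such position, as did 66% of all regions. Of the 168, 60 (35.7%) did, and 85 contained such a position.

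The regions named here were chosen after their values were seen, as the widest gaps among regions of at least 3 kb. In this paragraph the start of a gene is the position used for it, which can be a gene end. A region of 3450 bp at chr12:108939001-108942450, with the start of Wars as the nearest at 78971 bp, had no peak in any guide or control library and was covered to 100 and 66.7% in double, against 10.1 to 23.2% in CSF3R (limma adjusted p = 0.0390 without guide replicate 2). Another, at chr1:161733501-161737150, lies 51345 bp from the start of Fasl, a death ligand of lymphocytes. It was covered to 0, 8.22 and 0% in guide, to 80.8 and 61.6% in double, and not at all in control and CSF3R. A region of 10200 bp at chr4:117489451-117499650, 50674 bp from the start of Eri3, was at 0, 2.45 and 0% in guide and at 87.2 and 63.2% in double, close to the CSF3R libraries (77.9 to 84.3%). At the start of Gipc3 a region of 3100 bp rose from 12.9, 38.7 and 25.8% to 96.8 and 98.4% (adjusted p = 0.00882 without guide replicate 2).

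The longest peak was the same stretch in 3 of the 5 libraries. It measured 87250 bp in guide replicate 2 (chr8:123537401-123624650), 70250 bp in double replicate 1 and 87300 bp in double replicate 2, and no protein-coding gene of the table lies in it. The longest peak of guide replicate 3 (22550 bp) lay inside it, and guide replicate 1 covered 28.1% of it. The second longest peak of guide replicate 2 (45550 bp), at Atoh8, was covered to 61.9 and 20.7% in double. In guide replicate 1 the longest peak was 8900 bp, at Hrh3, a histamine receptor, and both double libraries covered that stretch fully. Double replicate 2 also had 1 peak of 21100 bp over Onecut3, a homeobox factor, of which double replicate 1 covered 93.4%.

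Promoters of the windows with double above and with double below guide held similar numbers of CG. Among the 50 windows 32 had a start site and promoter sequence, with a median of 23.5 CG in 300 bases, and among the 15 windows 9 had one, with a median of 22. The median of all 2589 tested windows with a promoter was 19, and that of all 17492 promoters was 13. At least 15 CG were found in 81.2% of the first set, 77.8% of the second, 64.6% of tested windows and 47.1% of all promoters.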

How the data were processed

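CUT&Tag peak lists for H3K27me3 from 10 libraries (2 control, 3 guide, 3 CSF3R and 2 double) were used, with those for H2AK119ub and H3K4me1 and a list from 2 merged IgG samples. Per the submitters' processing notes, the authors used Bowtie2 2.4.1, deepTools 3.5 and mm10. Which program called the peaks, and at what threshold, is not given in the sources used here. What was deposited is of another kind than counts or signal: start and end positions in bp, with widths in steps of 50 bp from 200 bp. They do not give the sequencing depth, so counting intervals and floors are missing, and deeper sequencing can lengthen a list.

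Peaks were intersected with 10 kb windows at gene starts of 21887 protein-coding genes (RefSeq GRCm38.p6). A stranded start was available for 17492 genes, and of several starts the one best covered over all 30 libraries was taken. For the other 4395 genes the better covered gene end was used, which can be the 3′ end. Windows whose covered fraction reached 0.2 in 2 or more libraries of a mark were tested with limma 3.58.1 (lmFit and eBayes, R 4.3.3), with 1 mean per genotype over the 10 libraries of the mark and Benjamini-Hochberg adjustment. Fractions end at 0 and 100%, where the spread is small. With 3513 windows simulated, limma recovered 20% of changes of 30 points and 75% of changes of 60 points with all libraries. Without guide replicate 2, limma recovered 47 and 94%. The script was tested on simulated data for this. Whether these shares hold for the measured windows was not tested. Intervals were handled in Python 3.11.15 with numpy 2.4.6 and pandas 2.3.3.

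Named genes, leaving out Gm and Rik symbols, were the 6 highest and 6 lowest by p with all libraries, up to 8 called in each direction without guide replicate 2, up to 8 in each direction with the widest gap, up to 3 of each of 20 gene lists by p, and Asxl1, Csf3r, Hoxb8, Hoxa9, Meis1, Gata2, Irf8, Rxra, Cebpe, Myc and Cdkn2a. The comparison, the genes and the lists were chosen with earlier results of these data known. Lists are described by counts and medians, without a set test.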

Additional observations from a re-analysis of the deposited data

Results flagged for a closer look

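In 6 named windows both double libraries lay below all 3 guide libraries while all 3 CSF3R libraries lay above both control libraries, so that adding CSF3R T618I went with opposite shifts in cells with and without the Asxl1 guide. The interaction, the CSF3R effect with the guide minus that without it, was -56.4 points at Hapln4, -58.2 at Mn1, -46.1 at Map4k4, -42.5 at Slc30a2, -40 at Cdh2 and -25.2 at Fgf12. At windows picked for such opposite shifts a negative interaction is fixed by the choice, so these values only describe them. None of these 6 passed the threshold of the interaction test (limma adjusted p = 0.394 for each). Counted by any margin, 65 of the 3513 tested windows showed such opposite shifts, all of them with double below guide. Shifts in the same direction were seen at 126, 123 of them upward. By any margin double lay below guide at 134 windows and above at 136. The share of windows with CSF3R above control by any margin was not counted, so the 65 have no matching background. By at least 10 points, CSF3R lay above control at 1171 windows (33.3%) and below at 3 (0.0854%). At that gap, opposite shifts with double above guide thus had few windows in which to occur.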

How the results depend on the processing

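With all libraries no window was called in either direction, and that count moved with the processing. The windows called higher were 310 with library weights (estimated weights that did not converge and gave guide replicate 3 a weight of 58.4), 96 after quantile normalization, 37 with a 2 kb window, 29 with covered length as covariate, 23 with any overlap in place of the fraction, 17 at equal covered length (967 windows tested), 5 with no filter, and 1 with the better covered gene end for all genes. Those called lower were 102, 31, 12, 21 and 29 under the first 5 of these. With covered length as covariate and guide replicate 2 left out, 0 were called higher and 0 lower. Leaving out single libraries gave 0 to 68 higher and 0 to 1 lower. With the replicate block no window was called (0 higher, 0 lower), and 13 were called higher with the replicate block and guide replicate 2 left out. Deviations of same-numbered libraries from their group means correlated at -0.29 and -0.27. With 2 double libraries, their deviations mirror each other, so differently numbered libraries must give the same values with opposite sign. Whether the numbers pair the libraries therefore cannot be told from this. Windows with double above guide numbered 50, 135 with a 2 kb window and 97 of 967 at equal covered length, and 50 to 454 when single libraries were left out. Windows with double below guide numbered 15, 124 with a 2 kb window, 10 of 967 at equal covered length, and 15 to 206 when single libraries were left out. The log2 ratio of covered length was -0.64 to 1.11 and that of mean width -0.33 to 0.24 when single libraries were left out, and mean width was 0.098 with peaks over 200 bp. Merged regions called were 73 higher and 1 lower without guide replicate 2, and 31 and 3 with covered length as covariate. The interaction gave 92 calls with covered length as covariate, 84 of them negative. H2AK119ub calls, 337 in all, were 57 to 667 when single libraries were left out and 1 with covered length as covariate, and the 351 H3K4me1 calls were 170 to 362. Of 79 named windows tested, 24 were called without guide replicate 2 and none with the replicate block. The sign changed for Hoxc9 (26 points), Mmp9 (0.125), E2f7 (7.56), Alox15 (2.5) and Hoxa9 (11.4) without guide replicate 2, and for Hoxd10 (-2.31), Cacna1g (-2.66) and Irf8 (0.593) with the replicate block. The causes were not tested.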
